A study of Mus musculus with 14 samples.

Results

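The 6 genes described here are the mitochondrially encoded subunits of respiratory chain complexes III and IV and of ATP synthase, also called complex V. They are mt-Cytb, mt-Co1, mt-Co2, mt-Co3, mt-Atp6 and mt-Atp8, chosen by their role from the 35275 genes in the table. Earlier results of these data were known when they were chosen. All 6 passed the filter on low values. Gene expression was measured by RNA sequencing of brown adipose tissue from 14 C57BL/6 mice, 8 weeks old. Every animal carried floxed Lrpprc alleles on both copies of the gene (LrpprcFF). Knockouts also carried a Ucp1-Cre transgene, which removes the floxed sequence in cells that express Ucp1. Controls carried the floxed alleles without Cre. Animals were housed at 22 ºC (room temperature, 4 controls and 4 knockouts) or at 30 ºC (thermoneutrality, 3 controls and 3 knockouts). The RNA came from homogenized tissue, although brown adipocytes are given as the cell type, so cells that do not express Ucp1 and keep Lrpprc were also measured. In such bulk RNA, fewer cells of a type and less RNA per cell cannot be told apart.

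Mitochondrial DNA is transcribed into long precursors that are cut into individual messenger RNAs inside the organelle. LRPPRC, encoded in the nucleus, binds these messenger RNAs together with its partner SLIRP and is known to promote their stability and polyadenylation. Cytochrome b is the core of complex III, which passes electrons from ubiquinol to cytochrome c. COX1, COX2 and COX3 form the catalytic core of cytochrome c oxidase (complex IV), which hands those electrons to oxygen. ATP6 and ATP8 belong to the membrane part of ATP synthase, through which protons return. In brown fat the same proton gradient is discharged as heat by UCP1.

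The ends of the 6 coding sequences, taken from the GENCODE M21 transcripts, show how compact these genes are. The last 30 bases of each are printed 5′ to 3′, with the stop codon in capitals. mt-Co3 and mt-Cytb end in a lone T that the poly(A) tail completes to a stop codon.
mt-Cytb: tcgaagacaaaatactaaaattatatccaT
mt-Co1: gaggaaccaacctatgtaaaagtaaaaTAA
mt-Co2: ttcgaaaactgatctgcttcaataattTAA
mt-Co3: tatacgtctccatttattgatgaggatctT
mt-Atp6: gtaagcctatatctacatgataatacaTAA
mt-Atp8: tatttgcctcattcattaccccaacaaTAA

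The annotated transcripts were 1144 nt for mt-Cytb, 1545 nt for mt-Co1, 684 nt for mt-Co2, 784 nt for mt-Co3, 681 nt for mt-Atp6 and 204 nt for mt-Atp8. mt-Atp8 runs into mt-Atp6: the 43 bases in capitals below are the end of mt-Atp8 and also the start of mt-Atp6, so that 161 bases of mt-Atp8 are its own. The end of mt-Atp6 shares 1 base with the start of mt-Co3. Reads from the shared stretch cannot be given to either gene by sequence alone.
mt-Atp8: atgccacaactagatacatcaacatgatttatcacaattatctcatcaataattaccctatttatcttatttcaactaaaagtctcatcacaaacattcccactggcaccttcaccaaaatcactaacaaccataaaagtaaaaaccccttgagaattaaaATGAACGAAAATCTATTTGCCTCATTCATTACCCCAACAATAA

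Nuclear copies of mitochondrial DNA bear on how the deposited levels can be read. Unprocessed pseudogenes on chromosome 1 repeat 4 of the 6 genes. Gm28661 matched 681 of the 684 nt of mt-Co2 at 100% identity, Gm10925 matched 678 of the 681 nt of mt-Atp6 at 100%, and Gm28437 matched 783 of the 784 nt of mt-Co3 at 100%. Gm29216 covered the last 483 nt of mt-Co1 with 1 mismatch (A1066T, counted from the first base of mt-Co1). Older copies on chromosome 2 have drifted further: Gm13340 matched mt-Co1 at 97.6% over 1545 nt and Gm13341 matched mt-Co2 at 95.9% over 684 nt. No copy of mt-Atp8 was found at 90% identity over 100 nt, and the copy of mt-Cytb in the table, Gm11410 (92.9%), was listed at 0 in every library, as was Gm11512, which matched mt-Co1 at 90.7%. The 60-base windows below are shown because a read from the first pair could not be assigned, whereas reads spanning the capitals of the other pairs could; capitals mark the bases that differ.
mt-Co2: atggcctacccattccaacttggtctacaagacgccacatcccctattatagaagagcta
Gm28661: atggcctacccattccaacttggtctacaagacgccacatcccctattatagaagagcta
mt-Co2: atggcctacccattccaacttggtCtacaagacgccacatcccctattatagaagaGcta
Gm13341: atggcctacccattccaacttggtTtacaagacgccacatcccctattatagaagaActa
mt-Co1: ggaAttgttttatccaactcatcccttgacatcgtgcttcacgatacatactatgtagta
Gm29216: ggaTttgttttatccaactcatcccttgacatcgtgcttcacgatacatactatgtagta

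Values are FPKM, that is fragments divided by gene length and by library size, as deposited unless called scaled. Libraries held 15.92 to 21.32 M fragments, a depth read from the smallest FPKM steps. Lrpprc, the deleted gene, was measured at 23.2 to 47.1 FPKM in the 22 ºC controls and 9.34 to 12.5 in the 22 ºC knockouts. At 30 ºC it was measured at 28.6 to 31.0 FPKM in controls and 5.95 to 9.91 in knockouts. The ranges did not overlap at either temperature. The rest of the tissue was measured through fixed marker lists. Of 13 brown adipocyte markers, 1 was under 1 FPKM in all 30 ºC knockouts, and 0 were so in each of the other groups. The marker lists are given with the 30 ºC comparison.

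In control tissue mt-Co1 and mt-Cytb stood far above the other 4 genes. Together the 6 genes took 10.4 ± 1.34% of all fragments in the 22 ºC controls (SD, n = 4) and 11.8 ± 0.917% in the 30 ºC controls (SD, n = 3). In the knockouts they took 0.909 ± 0.176% at 22 ºC (SD, n = 4) and 1.35 ± 0.609% at 30 ºC (SD, n = 3). In every library at least 98.9% of these fragments were assigned to mt-Co1 and mt-Cytb. Levels per length in the 22 ºC controls ran from 41407 FPKM for mt-Co1 and 34422 for mt-Cytb to 386 for mt-Co2, 359 for mt-Co3, 240 for mt-Atp6 and 13.6 for mt-Atp8. mt-Co1 and mt-Cytb overlapped in range there, and so did each pair among mt-Co2, mt-Co3 and mt-Atp6.

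The levels were set beside the share of each gene that is repeated in a nuclear transcript. Of all 100-base windows, 99.5% of mt-Co2, 99.9% of mt-Co3 and 99.5% of mt-Atp6 also occurred, letter for letter, in an annotated nuclear transcript. The share was 30.8% for mt-Co1 and 0% for mt-Cytb and mt-Atp8. Among the mitochondrially encoded complex I genes, mt-Nd3 (97.6% of windows, 77.6 FPKM) and mt-Nd4l (98.5%, 48.1 FPKM) were low, and mt-Nd1 (0%, 18940 FPKM) and mt-Nd5 (0%, 6526 FPKM) were high. Other genes did not follow this order. mt-Nd4 (60.8%) lay at 10927 FPKM, above mt-Nd5 and mt-Nd6 (0%, 6926 FPKM), and mt-Co1 lay above mt-Cytb. mt-Atp8 lay at 13.6 FPKM with no repeated window. The search covered annotated transcripts only, so copies without annotation would be missed. The 43 bases that mt-Atp8 shares with mt-Atp6 also occur in Gm10925 but are shorter than a window. The handling of reads that match several places is not given in the sources used here, so its part in these levels was not tested. The order therefore describes the deposited values, and the amounts of mt-Co2, mt-Co3 and mt-Atp6 RNA cannot be ranked against the others from it.

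**Figure D1:**
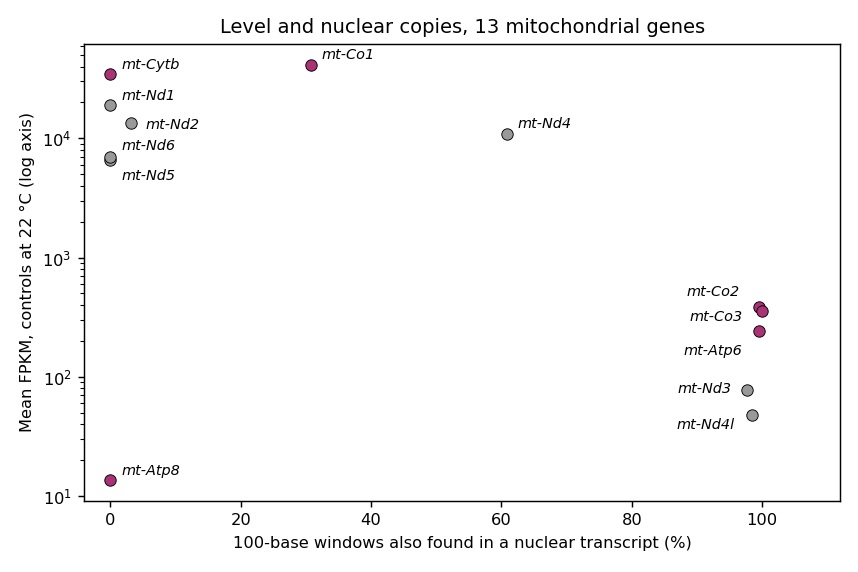
Each point is 1 of the 13 mitochondrial protein-coding genes, the 6 of complexes III, IV and V in purple and the 7 of complex I in grey. The x axis gives the percent of its 100-base windows that also occur in an annotated nuclear transcript and the y axis, on a log scale, its mean FPKM in the 4 controls at 22 ºC. The 5 genes with at least 97.6% of windows repeated lie between 48.1 and 386 FPKM, and mt-Atp8 lies below them at 13.6 with none.

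The FPKM assigned to the identical copies moved with that of the genes they repeat. Reads from identical stretches cannot be assigned by sequence, so these values do not show whether the copies themselves changed. Over the 14 libraries the FPKM of mt-Co2 was 1.11 to 1.30 times that of Gm28661, mt-Co3 was 1.03 to 1.35 times Gm28437 and mt-Atp6 was 0.678 to 0.877 times Gm10925. mt-Co1 was 88.2 to 127 times Gm29216. Of 15 nuclear copies of mitochondrial genes in the table, 11 passed the filter. The FPKM assigned to them fell in knockouts for 10 at 22 ºC and 11 at 30 ºC, with median log2 fold changes of -3.26 and -3.18. Where fragments of the copies with at least 99% identity were summed with the member, an alternative chosen after the data were seen, the log2 fold changes at 22 ºC were -3.16 for mt-Co2, -3.55 for mt-Co3 and -3.59 for mt-Atp6.

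All 6 transcripts fell in knockouts at 22 ºC, to between 6.52% and 12.2% of the control level. The comparison asks whether these messenger RNAs change when Lrpprc is deleted in brown fat. Fold changes were computed on log2 of scaled FPKM plus 1. Scaling divides each library by the median of its ratios to the geometric mean of each gene. The genes used for scaling were nuclear genes with at least 1 FPKM in every library. The limma test passed for 6 of 6 genes after Benjamini-Hochberg adjustment over 13079 genes, against 1.06% of all genes called lower. The knockout range lay wholly under the control range for 6 of 6, against 4.53% of all genes. The median log2 fold change of the 6 was -3.50, and that of all genes tested was 0.0024. All exact permutation tests of single genes gave p = 0.0286, the lowest that 4 against 4 animals can give.

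mt-Cytb (ENSMUSG00000064370), the complex III member, was measured at 36657, 36648, 26754 and 37629 FPKM in the 4 controls at 22 ºC. The 4 knockouts had 3330, 4253, 2804 and 3011 FPKM. The groups lay far apart, with control 3 the lowest of the controls and the other 3 within a narrow band. On the log2 scale the difference was -3.67 ± 0.29 (SE, limma adjusted p = 7.99e-06), which left 7.84% of the scaled control mean.

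mt-Co1 (ENSMUSG00000064351), the complex IV subunit that binds the heme and copper where oxygen is reduced, was measured at 44024, 41736, 34547 and 45320 FPKM in controls at 22 ºC. Its knockout values were 3043, 4298, 2712 and 3342 FPKM. No knockout came near a control. Its log2 difference was -3.95 ± 0.26 (SE, limma adjusted p = 4.76e-06), with 6.52% of the scaled control mean left. This was the lowest estimate of the 13079 genes with the pseudocount of 1, although the scaled mean of its copy Gm13340 fell further, to 4.86% of the control mean.

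mt-Co2 (ENSMUSG00000064354), whose protein takes electrons from cytochrome c, was measured at 390, 387, 283 and 486 FPKM in controls at 22 ºC. Its knockout values were 50.7, 53.4, 52.5 and 48.5 FPKM, the tightest group of any member relative to its mean (51.3 ± 2.14 FPKM, SD, n = 4). On the log2 scale the difference was -3.17 ± 0.26 (SE, limma adjusted p = 8.85e-06), and 10.8% of the scaled control mean remained. Control 4 was the highest and control 3 the lowest, as for all 6 members, and these are the 2 controls whose identifiers begin with R rather than E.

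mt-Co3 (ENSMUSG00000064358), the remaining mitochondrially made subunit of complex IV, was measured at 391, 296, 252 and 497 FPKM in controls at 22 ºC. Its knockout values were 31.9, 45.0, 36.4 and 36.7 FPKM. The controls spread more than the knockouts, and the groups did not overlap. The mt-Co3 difference was -3.49 log2 units ± 0.31 (SE, limma adjusted p = 2.44e-05), with 8.47% of the scaled control mean left.

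mt-Atp6 (ENSMUSG00000064357), the ATP synthase subunit that forms the proton path, was measured at 235, 231, 160 and 335 FPKM in controls at 22 ºC. Its knockout values were 26.7, 25.3, 22.3 and 22.4 FPKM, again a narrow group. On the log2 scale the difference was -3.51 ± 0.28 (SE, limma adjusted p = 8.85e-06), with 8.17% of the scaled control mean left.

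mt-Atp8 (ENSMUSG00000064356), a small ATP synthase subunit, was measured at 11.2, 16.5, 9.13 and 17.5 FPKM in controls at 22 ºC. Its knockout values were 2.88, 1.79, 2.46 and 1.05 FPKM. These values rested on few reads: 38 to 63 fragments per control and 11, 7, 8 and 4 fragments in the knockouts. The exact 95% Poisson interval for 4 fragments runs from 1.09 to 10.2 and that for 38 from 26.9 to 52.2, covering counting error only. In log2 units the difference was -2.51 ± 0.25 (SE, limma adjusted p = 9.34e-05) and 12.2% of the scaled control mean remained. The pseudocount pulls this low gene towards 0, and with 0.1 in place of 1 its log2 fold change was -3.01.

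**Figure D2:**
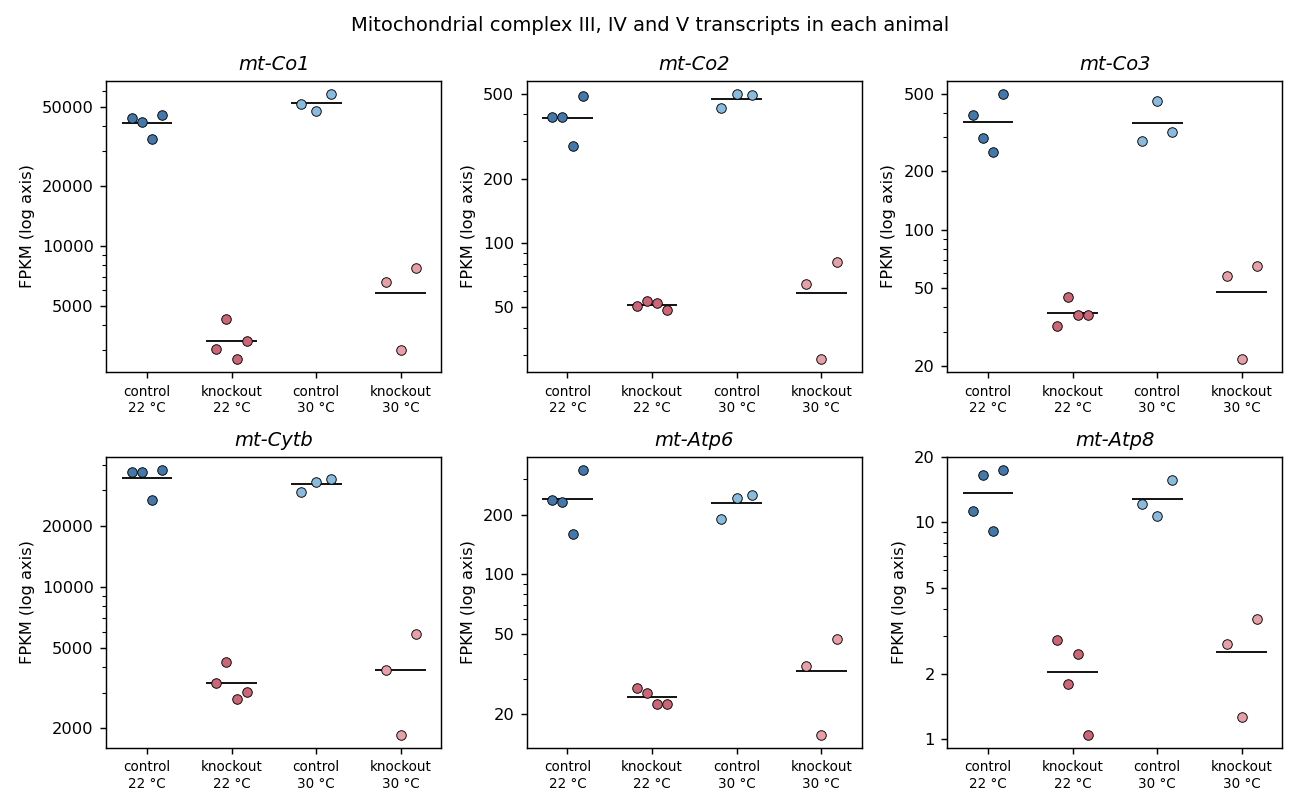
Each panel gives 1 gene, with FPKM as deposited on a log axis, a point for each animal and a bar at the group mean for the 4 controls and 4 knockouts at 22 ºC and the 3 controls and 3 knockouts at 30 ºC. In every panel all knockouts lie under all controls, and the lowest 30 ºC knockout is the same animal in all 6 panels.

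At 30 ºC the 6 transcripts fell again, to between 9.04% and 16.2% of the control level. The limma test passed for 6 of 6, against 5.28% of all genes called lower. The knockout range lay wholly under the control range for 6 of 6, as it did for 14.6% of all genes. The median log2 fold change of the 6 was -3.33, and that of all genes was 0.06. The exact permutation tests gave p = 0.1 for each gene, the lowest that 3 against 3 animals can give.

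mt-Cytb was measured at 29367, 32645 and 33814 FPKM in the 30 ºC controls and at 3901, 1865 and 5862 in the knockouts. On the log2 scale its difference was -3.49 ± 0.33 (SE, limma adjusted p = 9.79e-05), with 9.92% of the scaled control mean left. mt-Co1 was measured at 51806, 47597 and 57800 FPKM in controls and at 6607, 3004 and 7734 in knockouts. Knockout 2 held less than the other 2 knockouts for both genes. For mt-Co1 the log2 difference was -3.59 ± 0.31 (SE, limma adjusted p = 6.11e-05), with 9.04% left.

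mt-Co2 was measured at 427, 496 and 490 FPKM in the 30 ºC controls and at 64.5, 28.8 and 81.4 in the knockouts, a log2 fold change of -3.41 (SE 0.30, limma adjusted p = 6.11e-05). mt-Co3 was measured at 284, 457 and 317 FPKM in controls and at 57.6, 21.7 and 65.1 in knockouts, a log2 fold change of -3.25 (SE 0.36, limma adjusted p = 0.000234). Both complex IV messengers thus showed the same low knockout animal, and 10.1% of mt-Co2 and 11.2% of mt-Co3 remained.

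mt-Atp6 was measured at 189, 243 and 252 FPKM in the 30 ºC controls and at 34.6, 15.7 and 47.4 in the knockouts, a log2 fold change of -3.18 (SE 0.32, limma adjusted p = 0.000153). mt-Atp8 was measured at 12.1, 10.7 and 15.8 FPKM in controls and at 2.76, 1.27 and 3.57 in knockouts, a log2 fold change of -2.24 (SE 0.29, limma adjusted p = 0.000700). The mt-Atp8 knockout values came from 12, 5 and 13 fragments. Of the ATP synthase pair, 11.7% of mt-Atp6 and 16.2% of mt-Atp8 remained, the highest shares of the 6 at this temperature.

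Knockout 2 at 30 ºC had the lowest value of all 14 animals for 4 of the 6 members (mt-Cytb, mt-Co2, mt-Co3 and mt-Atp6). It also had the lowest Lrpprc of all animals, 5.95 FPKM against 8.24 and 9.91 in the other 30 ºC knockouts. The 22 ºC controls did not show this pairing. There control 4 had the highest FPKM for all 6 members and the lowest Lrpprc, 23.2 FPKM against 32.1 to 47.1. In the 30 ºC comparison other tissue features moved, where 1154 of all 13079 genes were called higher and 691 lower. Of 12 macrophage markers 10 rose, and their summed scaled FPKM was 148 to 475 in controls and 711 to 2013 in knockouts. Of 13 brown adipocyte markers 6 fell, with sums of 15425 to 19155 in controls and 8300 to 10093 in knockouts. With quantile normalization 1 fell and 1 rose, and with no filter 3 fell. At 22 ºC the macrophage sums were 72.4 to 108 in controls and 117 to 243 in knockouts with 0 of 12 called (4 of 12 with FPKM as deposited). The brown adipocyte sums at 22 ºC were 20654 to 27280 in controls and 16228 to 21501 in knockouts. Of those 13 markers 1 was called higher and 1 lower (3 higher and 1 lower with FPKM as deposited). FPKM as deposited gave 3167 higher and 81 lower of all 13079 genes at 22 ºC. Ucp1, whose promoter drives the Cre, was measured at 1161 to 2599 FPKM in 22 ºC controls and 1648 to 3677 in knockouts (scaled log2 difference -0.02, limma adjusted p = 0.982), and it fell by 1.31 on the log2 scale at 30 ºC (limma adjusted p = 0.0302).

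Of the other marker lists, white fat and fibroblast markers at 30 ºC gave the most calls. Skeletal muscle markers (9 tested) gave 0 calls at either temperature, with sums of 452 to 5995 in 22 ºC controls, 513 to 1367 in 22 ºC knockouts, 70.5 to 12672 in 30 ºC controls and 1889 to 8057 in 30 ºC knockouts. Endothelial markers (8 tested) gave 0 calls at both temperatures. Blood and lymphocyte markers (8 tested) gave 0 calls at 22 ºC and 1 higher at 30 ºC, and white fat and fibroblast markers (7 tested) gave 0 calls at 22 ºC and 4 higher at 30 ºC, where their sums were 604 to 777 in controls and 591 to 1039 in knockouts. The 4 became 1 without control 2 or knockout 1 at 30 ºC and 2 without control 1 at 30 ºC. The part of these other cells in the member values was not tested.

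The knockout effect was compared between the temperatures by the difference of the log2 fold changes, 22 ºC minus 30 ºC. The animals at 22 ºC and at 30 ºC also differed in the sex-linked genes Xist and Ddx3y, whose values are given below. Temperature cannot be told apart from that difference. None of the 6 members passed, with limma adjusted p between 0.750 and 0.898, against 0% of all genes; 1694 of 13079 genes had an unadjusted p under 0.05. The estimates ran from -0.36 for mt-Co1 (SE 0.40) to 0.24 for mt-Co2 (SE 0.39), so a difference of the size of these errors was not detectable with these animals. The sign for mt-Co2 turned to -0.21 without knockout 2 at 30 ºC, and those for mt-Co3 and mt-Cytb turned to 0.05 and 0.19 without knockout 3 at 30 ºC.

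Other genes of the same complexes were set beside the members. The 7 mitochondrially encoded complex I genes fell in 7 of 7 cases at both temperatures, with median log2 fold changes of -3.21 at 22 ºC and -3.03 at 30 ºC. At 22 ºC, 20 of 13079 genes had a lower estimate than mt-Atp8, the least changed member, and these were 12 mitochondrial genes and 8 nuclear copies. At 30 ºC, 27 genes had a lower estimate than mt-Atp8, of which 12 were mitochondrial and 10 were nuclear copies.

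**Figure D3:**
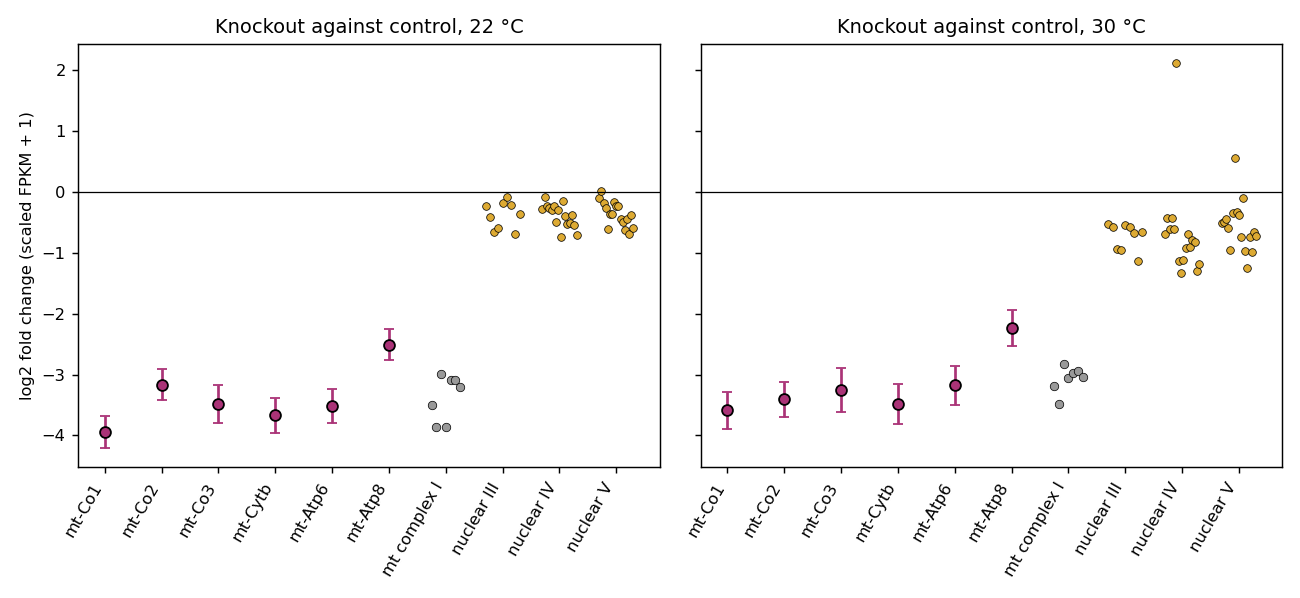
Log2 fold changes of knockout against control at 22 ºC (left) and 30 ºC (right), for the 6 members in purple with bars of 1 SE, the 7 mitochondrially encoded complex I genes in grey and the nuclear-encoded subunits of complexes III (9), IV (16) and V (17) in yellow, each point a gene. The members lie between -3.95 and -2.24, and the lowest nuclear-encoded subunit lies at -1.33.

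The nuclear-encoded partners changed far less. At 22 ºC, 3 of 9 nuclear complex III subunits fell (median -0.37 on the log2 scale), 4 of 16 of complex IV (median -0.34) and 6 of 17 of complex V (median -0.37), and none rose. The lowest were Uqcrh (-0.68, limma adjusted p = 0.0230) and Uqcr11 (-0.66, limma adjusted p = 0.0430) of complex III, Cox6c (-0.73, limma adjusted p = 0.00733) and Ndufa4 (-0.70) of complex IV, and Atp5mpl (-0.69, limma adjusted p = 0.0134) and Atp5k (-0.63, limma adjusted p = 0.0308) of complex V. At the other end were Uqcrc2 (-0.09), Cox4i2 (-0.09) and Atp5b (0.02), none of which passed. Of all genes, 1.06% were called lower at 22 ºC. The subunit counts moved with the scaling. On FPKM as deposited they were 0 of 9, 2 of 16 and 2 of 17, against 81 of all 13079 genes. With quantile normalization they were 0 of 9, 1 of 16 and 0 of 17, against 93 of all genes. Leaving out an animal in turn gave 0 to 3, 2 to 4 and 1 to 7.

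At 30 ºC, 8 of 9 nuclear complex III subunits fell (median -0.65), 13 of 16 of complex IV (median -0.81) and 11 of 17 of complex V (median -0.59). Of all genes, 5.28% were called lower at 30 ºC. With FPKM as deposited the subunit counts were 3 of 9, 10 of 16 and 8 of 17, against 291 of all 13079 genes. With quantile normalization they were 3 of 9, 6 of 16 and 8 of 17, against 905 of all genes. Leaving out an animal in turn gave 3 to 9, 11 to 14 and 8 to 13. Uqcrh (-1.13, limma adjusted p = 0.000947) and Uqcrb (-0.96) led complex III and Cyc1 (-0.52, limma adjusted p = 0.0268) was its least changed subunit. In complex IV, Cox6b2 (-1.33, limma adjusted p = 0.00592) and Cox8b (-1.30, limma adjusted p = 0.00118) fell most, and Cox6a2, a heart and muscle isoform, had an estimate of 2.12 (SE 1.60, limma adjusted p = 0.427) with 0.414 to 293 FPKM in controls. In complex V, Atp5k (-1.24, limma adjusted p = 0.000399) and Atp5mpl (-0.99) fell, and Atp5g1 had an estimate of 0.56 (limma adjusted p = 0.629). The difference between the temperatures passed for 0 genes of these lists. The brown adipocyte marker sums given above were also lower in the 30 ºC knockouts. That marker list shares Cox8b and Cox7a1 with the complex IV list, so the sums are not independent of it.

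Factors that make, cut, bind or degrade mitochondrial RNA were the last list. Of 28 tested, 1 fell at 22 ºC (median 0.05) and 5 fell at 30 ºC (median -0.14), and none rose. The share of all genes called lower was 1.06% at 22 ºC and 5.28% at 30 ºC. With FPKM as deposited, 7 rose and 1 fell at 22 ºC, and 1 rose and 2 fell at 30 ºC. In that setting 3167 of all 13079 genes rose and 81 fell at 22 ºC, and 4280 rose and 291 fell at 30 ºC. The 5 at 30 ºC became 7 with quantile normalization, 8 without the controls with R identifiers, 2 without control 2 or knockout 1 at 30 ºC, and 3 without control 1, control 3 or knockout 3 at 30 ºC. Hsd17b10, a subunit of mitochondrial RNase P, was lowest at both temperatures (-0.64, limma adjusted p = 0.00545, and -0.86, limma adjusted p = 0.000772). Slirp, the partner of LRPPRC, was measured at 5.23 to 6.88 FPKM in 22 ºC controls and 4.85 to 5.24 in knockouts, with a log2 fold change of -0.49 on the scaled values (limma adjusted p = 0.0759). At 30 ºC Slirp was measured at 3.30 to 4.15 FPKM in controls and 2.20 to 3.20 in knockouts and fell by 0.58 on the log2 scale (limma adjusted p = 0.0213). Tfb2m, a transcription factor of mitochondrial DNA, fell by 0.59 at 30 ºC (limma adjusted p = 0.0484), while Polrmt, the mitochondrial RNA polymerase, had an estimate of 0.26 at 22 ºC and Rexo2, an RNA-degrading enzyme, one of 0.26 at 30 ºC.

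Whether the members fell by unequal amounts was tested on ratios of 2 members within an animal, which do not depend on scaling. Of 15 pairs, 4 passed an exact permutation of genotype within temperature (1400 regroupings, two-sided) after Benjamini-Hochberg adjustment, and 7 had an unadjusted p under 0.05. The log2 ratio of mt-Co1 to mt-Co2 was lower in knockouts, with a difference of -0.45 (exact p = 0.00429, adjusted 0.0429), made up of -0.75 at 22 ºC and -0.14 at 30 ºC. The ratio of mt-Co1 to mt-Atp6 had an estimate of -0.36 (exact p = 0.0129, adjusted 0.0482). Against mt-Atp8, mt-Co1 had -0.85 (exact p = 0.00571, adjusted 0.0429) and mt-Cytb had -0.66 (exact p = 0.0114, adjusted 0.0482). mt-Co3 and mt-Atp6, which neighbour each other, had the estimate closest to 0 (-0.0056, exact p = 0.960).

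These calls sat close to the threshold. The 4 estimates kept their sign in all 17 alternatives, but none of the 15 pairs passed in 9 of the 14 analyses that each left out an animal, nor without the 2 controls with R identifiers. mt-Atp8 entered with as few as 4 fragments, and reads of mt-Co2 and mt-Atp6 can be shared with their nuclear copies. With the copies summed, 5 pairs passed.

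The levels at the 2 housing temperatures were compared within each genotype. None of the 6 members passed in controls, where 38.8% of all genes did, with log2 differences (22 ºC minus 30 ºC) from -0.24 for mt-Co1 to 0.20 for mt-Cytb and limma adjusted p from 0.534 to 0.819. None passed in knockouts, where 51.1% of all genes did, with differences from -0.60 for mt-Co1 (limma adjusted p = 0.0955) to 0.04 for mt-Co2. Without knockout 2 at 30 ºC, 2 members passed in knockouts, mt-Co1 at -1.04 (limma adjusted p = 0.000963) and mt-Atp6 at -0.65 (limma adjusted p = 0.0305). Temperature cannot be told apart from a difference in sex-linked genes: Xist was 0 to 0.0141 FPKM at 22 ºC and 9.01 to 18.4 at 30 ºC, and Ddx3y was 14.5 to 23.1 and 0 to 0.0244.

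Both abundant transcripts shifted against each other between the 22 ºC and the 30 ºC animals, which also differ in the sex-linked genes above. The ratio of mt-Co1 to mt-Cytb FPKM was 1.20, 1.14, 1.29 and 1.20 in 22 ºC controls and 1.76, 1.46 and 1.71 in 30 ºC controls. In knockouts it was 0.914, 1.01, 0.967 and 1.11 at 22 ºC and 1.69, 1.61 and 1.32 at 30 ºC. The temperatures did not overlap in either genotype, and at 22 ºC all knockouts lay under all controls. The log2 ratio differed by -0.53 (22 ºC minus 30 ºC; -0.44 in controls and -0.62 in knockouts; exact permutation within genotype, p = 0.000816, the smallest of 1225 regroupings, adjusted over 15 pairs 0.0122). This test was chosen after the data were seen, and 1 of the 15 pairs passed it. For genotype, the same ratio differed by -0.19 (exact p = 0.0329, adjusted 0.0704).

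**Figure D4:**
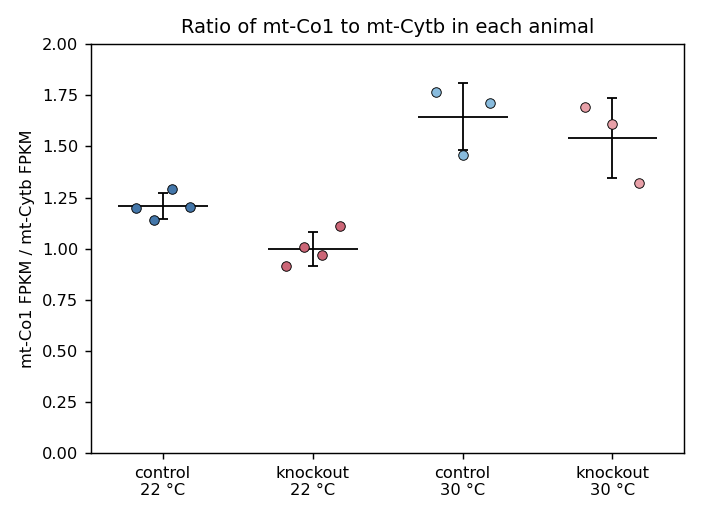
The FPKM of mt-Co1 divided by that of mt-Cytb in each of the 14 animals by group, with bars for the mean and 1 SD. The 8 animals at 22 ºC lie between 0.914 and 1.29 and the 6 animals at 30 ºC between 1.32 and 1.76. These animals also differ in sex-linked genes, which cannot be told apart from temperature.

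The diverged copy of mt-Co1 also differed between the temperatures. mt-Co1 FPKM was 1829 to 3177 times that of Gm13340 in 22 ºC controls and 2653 to 4017 times in 22 ºC knockouts, against 848 to 952 times in 30 ºC controls and 648 to 1015 times in 30 ºC knockouts. Its share in the mt-Co1 shift was not tested, and at its highest Gm13340 held 61.1 FPKM against at least 47597 for mt-Co1 in the 30 ºC controls.

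The genes whose levels followed the members most closely over the 14 libraries were ranked by Pearson's r. It was taken between log2(scaled FPKM + 1) and the mean standardized level of the 6. This is a description over animals of both genotypes, so each r includes the difference between knockouts and controls. All genes of a library also share its depth. Outside the mitochondrial chromosome the 5 highest were nuclear copies: Gm28661 (0.998), Gm10925 (0.997), Gm28437 (0.996), Gm28439 (0.992) and Gm29216 (0.989). Most reads of these copies cannot be told by sequence from those of mitochondrial genes, so their r is not separate information. The 7 complex I genes had 0.981 to 0.998. With copies set aside, a choice made after their values were seen, the highest were C1qtnf12 (0.946), Lrpprc itself (0.935), Dctn3 (0.927), Trappc1 (0.927) and Anapc13 (0.924). Slirp had 0.523. These r rest on scaled values. In FPKM as deposited, the ranges of knockouts and controls overlapped at both temperatures for Dctn3 (53.0 to 62.1 in 22 ºC controls and 53.4 to 57.8 in knockouts, 56.3 to 62.1 and 53.6 to 60.9 at 30 ºC) and Trappc1 (37.3 to 42.4 and 34.1 to 37.9 at 22 ºC, 39.1 to 42.3 and 30.3 to 41.8 at 30 ºC). C1qtnf12, a secreted protein of adipose tissue, was measured at 64.4 to 82.0 FPKM in 22 ºC controls and 47.1 to 61.4 in knockouts, and at 73.1 to 77.1 and 52.5 to 59.1 at 30 ºC.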

How the data were processed

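RNA was extracted from homogenized brown adipose tissue, per the labels' protocols, and the authors deposited FPKM per gene and animal. Per the submitters' processing notes the build was mm9. The aligner, counting tool, annotation, use of strand, treatment of reads that match several places and selection of messenger RNA by its poly(A) tail are not given in the sources used here. Replicates are separate animals with their own identifiers and no pairing.

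Of 35275 identifiers, 34490 matched GENCODE M21, which gave symbols, lengths and transcript sequences; no coordinates are given because the builds differ. Depth was recovered from the steps of low FPKM in genes with 1 transcript, where 89.9% to 91.5% of values up to 5 reads were whole within 0.03 reads. Libraries were put on a common scale by their median ratio over 10049 nuclear genes with at least 1 FPKM in every library (divisors 0.823 to 0.947 in controls and 1.05 to 1.20 in knockouts), since mitochondrial transcripts take up reads. Genes with at least 1 FPKM in at least 3 samples (13079) were fitted as log2(scaled FPKM + 1) with limma 3.58.1 in R 4.3.3 (eBayes with trend, a mean per group over all 14 libraries) and adjusted by Benjamini-Hochberg over all genes, with an adjusted p under 0.05 called. Single genes and ratios were tested by exact two-sided permutation. Nuclear copies were found with blastn 2.17.0 (at least 90% identity over 100 nt) and by exact 100-base windows. Tables and plots used Python 3.11.15, pandas 2.3.3, numpy 2.4.6 and matplotlib 3.10.9.

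The fit was tested on simulated data for the 22 ºC comparison. Of 200 genes among 13066 changed by 2 on the log2 scale, 96% were recovered with 0 in the opposite direction, and false calls made up 4%. The simulated libraries had independent normal noise and no difference in depth, scaling or tissue make-up. The result therefore checks the code and does not give the error rate in the real libraries. Named genes were all members, of each nuclear list the 2 lowest and the 1 highest log2 fold change, the 5 nuclear genes most like the members, nuclear copies, Lrpprc, Slirp and Ucp1. The members and lists were chosen with earlier results of these data known. Alternatives covered the pseudocount, filter, scaling, samples and prior of the fit, leaving out animals, and summing nuclear copies.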

Additional observations from a re-analysis of the deposited data

Results flagged for a closer look

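These results met a fixed rule for extreme samples or for effects that differ between temperatures. The rule for extreme samples was applied to 44 groups of 4 animals, and chance flags about 1 in 20. mt-Cytb in control 3 at 22 ºC had 26754 FPKM while the other 3 controls had 36648 to 37629, a gap of 0.910 of the range and above Dixon's critical value. The ratio of mt-Co2 to mt-Cytb in control 4 at 22 ºC was 0.0129 against 0.0106 in each of the other 3, a gap of 0.962 of the range and above the same value. Both animals are the controls whose identifiers begin with R.

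For 2 ratios every knockout at 22 ºC lay above the control mean and every knockout at 30 ºC lay below it, and the difference between the temperatures was not tested. The ratio of mt-Co2 to mt-Co3 FPKM was on average 0.283 higher than the control mean at 22 ºC and differed by -0.146 at 30 ºC. The ratio of mt-Co2 to mt-Atp6 was on average 0.492 higher at 22 ºC and differed by -0.279 at 30 ºC.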

How the results depend on the processing

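In the knockout comparison at 22 ºC all 6 members stayed called and lower in all 24 alternatives, with mt-Co1 between -4.06 and -2.48 on the log2 scale and mt-Atp8 between -3.01 and -2.26. At 30 ºC the same held except under quantile normalization, which gives the top-ranked genes of every library the same values by construction: mt-Co1 had -0.66 (limma adjusted p = 0.416) and mt-Cytb -1.50 (limma adjusted p = 0.0754). No paired analysis was possible because animals carry individual identifiers and the groups share no replicate numbers.

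Leaving out an animal in turn turned the sign of small estimates. For the difference between the knockout effects the estimates ran from -0.21 to 0.54 for mt-Co2, -0.74 to 0.048 for mt-Co3 and -0.66 to 0.19 for mt-Cytb. Between temperatures in controls they ran from -0.038 to 0.32 for mt-Co3 and -0.0080 to 0.33 for mt-Atp6. In knockouts they ran from -0.42 to 0.34 for mt-Co2, -0.63 to 0.16 for mt-Co3, -0.46 to 0.39 for mt-Cytb, -0.65 to 0.13 for mt-Atp6 and -0.42 to 0.074 for mt-Atp8. Other alternatives turned signs in knockouts only: -0.057 for mt-Co2 and -0.079 for mt-Cytb with FPKM as deposited, 0.0043 for mt-Co3, -0.64 for mt-Cytb and 0.12 for mt-Atp8 with quantile normalization, and -0.0095 for mt-Cytb with a common nuclear total. Apart from mt-Atp6 at -0.65, none of the values in this paragraph passed, and the cause was not tested.

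Some alternatives tested other numbers of genes, given where they differ much. Of 13079 genes, 258 were called at 22 ºC, against 130 of 24190 with no filter and 86 of 11946 with only the 2 groups. The count at 22 ºC was 3248 with FPKM as deposited, 461 with a common nuclear total and 71 to 272 leaving out an animal. At 30 ºC 1845 were called, against 4571 with FPKM as deposited, 1223 of 12575 with only the 2 groups, and 815 to 2222 leaving out an animal. FPKM as deposited moved the median of all genes from 0.0024 to 0.24 at 22 ºC and from 0.06 to 0.31 at 30 ºC, and the call share with it, from 119 higher and 139 lower to 3167 and 81 at 22 ºC and from 1154 and 691 to 4280 and 291 at 30 ºC. For the difference between the effects, 0 were called, against 9 of 24190 with no filter, 6 as deposited and 8 with quantile normalization. It was 10 with a common nuclear total, 7 without trend and 0 to 135 leaving out an animal (135 without knockout 2 at 30 ºC). Between temperatures in knockouts 6689 of 13079 were called, against 4250 of 7791 at a mean FPKM of at least 5. Members called in that comparison were 0, against 1 with quantile normalization and 0 to 2 leaving out an animal. Of the member ratios 4 passed, against 10 with 1 added to each FPKM, 0 without the controls with R identifiers and 0 to 9 leaving out an animal. Depth limited mt-Atp8 alone among the members, at 4 to 63 fragments per library.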

Other observations

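The overlapping pair mt-Atp8 and mt-Atp6 was also compared within animals. The ratio of mt-Atp8 to mt-Atp6 FPKM was 0.0477, 0.0716, 0.0572 and 0.0521 in the 22 ºC controls and 0.108, 0.0706, 0.110 and 0.0469 in the 22 ºC knockouts. At 30 ºC it was 0.0639, 0.0440 and 0.0626 in controls and 0.0796, 0.0806 and 0.0753 in knockouts. The groups overlapped at 22 ºC and did not at 30 ºC, and the log2 ratio of mt-Atp6 to mt-Atp8 differed by -0.49 between genotypes (exact permutation p = 0.0214, adjusted over 15 pairs 0.0536), which did not pass. Both genes lie on the same precursor and share 43 bases. Gm10925 repeats the first 678 of the 681 nt of mt-Atp6, which include those 43 bases. For mt-Atp8 no copy of at least 100 nt was found among annotated nuclear transcripts.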
